A study of Mus musculus with 6 samples.

Results

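The genes examined here carry glucose into heart muscle, split it in glycolysis, handle the resulting lactate, and store or release glucose as glycogen. The set was chosen by gene symbol and holds 39 genes. Of these, 35 had at least 1 of 59 probes on the array, 28 had a probe that exceeded background on 2 or more of the 6 arrays, and these 28 were tested together with every other measured gene, 9649 in all. Expression was measured with Illumina bead arrays on left ventricle RNA of mice lacking the histone H3K9 demethylase Kdm3a (KO) and of wild-type (WT) mice, after transverse aortic constriction (TAC), a band on the aortic arch that overloads the ventricle, or after sham surgery, which omits the band. The groups were 2 KO TAC arrays, 1 KO Sham array, 2 WT TAC arrays and 1 WT Sham array. All mice were male, labelled c57/BL6, 6 to 8 weeks old at surgery, and hearts were taken 3 weeks later per the labels. The study's text gives a longer interval, and describes the knockout as global, on a mixed FVB and C57 background with littermate controls, besides a second line on C57. Which line was put on the arrays was not stated in the sources used here. Nothing in the labels says whether the replicates of a group were separate animals, so p-values measure the spread between arrays, which may be technical.

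Glucose enters cardiomyocytes mainly through the insulin-responsive transporter GLUT4 (Slc2a4) and the basal transporter GLUT1 (Slc2a1). GLUT1 prevails in the fetal heart and GLUT4 in the adult one, and adult myocardium otherwise burns mostly fatty acids. Hexokinase traps the sugar as glucose 6-phosphate, phosphofructokinase commits it to glycolysis, and lactate dehydrogenase interconverts pyruvate and lactate. Several steps have a muscle isoform (Pfkm, Pgam2, Eno3, Pygm) beside isoforms of other tissues (Pfkl, Pfkp, Pgam1, Pygl). Glycogen is built on glycogenin (Gyg) by glycogen synthase (Gys1), cut by glycogen phosphorylase, and tuned by protein phosphatase 1, which subunits such as Ppp1r3b hold on the glycogen particle.

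Promoters are shown for a pair of genes that was lower and a pair that was higher in KO TAC hearts than in WT TAC hearts. These 4 were picked by name, not by a rule, and do not stand for all called members. The 250 bases before the annotated start were taken from RefSeq (GRCm38.p6), 5′ to 3′ on the strand of the gene. Capitals mark ACGTG or GCGTG, the core of the hypoxia response element, or the MEF2 motif of muscle genes, and TATAAA was searched too, all on both strands, so that a CACGTG counts on each.
Slc2a1 (chr4:119108495-119108744, plus strand): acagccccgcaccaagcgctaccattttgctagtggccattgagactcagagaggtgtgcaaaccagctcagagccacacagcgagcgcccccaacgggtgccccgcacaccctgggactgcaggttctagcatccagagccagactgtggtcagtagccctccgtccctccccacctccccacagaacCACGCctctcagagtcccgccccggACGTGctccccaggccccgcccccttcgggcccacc
Pfkp (chr13:6648772-6649021, minus strand): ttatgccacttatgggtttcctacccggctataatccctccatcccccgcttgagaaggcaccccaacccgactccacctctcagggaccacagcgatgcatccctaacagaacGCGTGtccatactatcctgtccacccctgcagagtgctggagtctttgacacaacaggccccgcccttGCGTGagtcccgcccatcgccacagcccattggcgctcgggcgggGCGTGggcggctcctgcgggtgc
Eno3 (chr11:70656926-70657175, plus strand): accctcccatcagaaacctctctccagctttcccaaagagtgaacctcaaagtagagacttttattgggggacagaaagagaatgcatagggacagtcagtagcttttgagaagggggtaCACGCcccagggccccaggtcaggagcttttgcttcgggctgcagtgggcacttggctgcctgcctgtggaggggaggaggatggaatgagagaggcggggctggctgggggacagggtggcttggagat
Pgam2 (chr11:5803797-5804046, minus strand): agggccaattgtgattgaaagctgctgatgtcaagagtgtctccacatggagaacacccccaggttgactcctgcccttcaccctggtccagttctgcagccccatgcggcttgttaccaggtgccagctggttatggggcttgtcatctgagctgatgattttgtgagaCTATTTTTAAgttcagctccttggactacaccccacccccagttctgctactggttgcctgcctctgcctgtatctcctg
Slc2a1 held 1 ACGTG and 1 GCGTG, Pfkp 3 GCGTG, Eno3 1 GCGTG and Pgam2 1 MEF2 motif, and none of the 4 held TATAAA. In the RefSeq table used here 36 of the 39 genes were matched, with 54 promoters, and Slc2a3, Slc2a4 and Ppp1r3b were not matched. Either hypoxia core was present in 39 of the 54 (72.2%), against 38.6% of all 32851 promoters, the MEF2 motif in 3 of the 54 against 2.92%, and TATAAA in 3 of the 54 against 12.4%. The motifs did not follow the direction of change. Pfkm, Pfkfb2 and Pygm, higher in KO TAC, also had promoters with ACGTG or GCGTG and none with the MEF2 motif. Hk1 and Ugp2, lower in KO TAC, each had 1 promoter with neither core. These matches are descriptions of the letters, and the windows of a gene with several starts can overlap.

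Some facts about the arrays bear on all comparisons. The Kdm3a probe ILMN_3118169 had intensities of 137 and 143 in KO TAC and 129 in KO Sham, all below background, against 296 and 264 in WT TAC and 292 in WT Sham. Another 2 Kdm3a probes were above background on all 6 arrays and dimmer on each KO array than on each WT array, and where these probes lie relative to the deletion is not stated in the labels. The WT TAC arrays stood apart: they correlated at 0.917 to 0.931 with the other 4 arrays, which correlated at 0.984 to 0.995 with each other. In KO TAC vs WT TAC 41.0% of all genes passed the test (limma, adjusted p under 0.05). On each array 14960 to 16015 probes exceeded background, which lay at intensities of 149.0 to 155.1. The summed intensity of 7 measured neutrophil markers was 1207 and 1494 in KO TAC and 1539 in KO Sham, against 9996 and 14889 in WT TAC and 1304 in WT Sham. That of 13 macrophage markers was 7772 and 9457 in KO TAC and 9026 in KO Sham, against 20544 and 27354 in WT TAC and 6619 in WT Sham. The higher macrophage sum in WT TAC came mainly from Lgals3 (9139 and 15279, against 439 and 437 in KO TAC) and Cd14 (2835 and 2862, against 239 and 234). Only 5 of the 13 passed in KO TAC vs WT TAC. Others overlapped, such as Csf1r (380 and 438 in KO TAC, 355 and 444 in WT TAC) and Lyz2 (1900 and 2316, against 1718 and 1996). The 11 fibroblast markers summed to 23166 and 25074 in KO TAC and 24262 in KO Sham, against 41074 and 42651 in WT TAC and 21378 in WT Sham. The higher sum in WT TAC came largely from Dcn (23214 and 22423, against 15973 and 16909 in KO TAC) and Mfap5 (6712 and 7094, against 611 and 748). Dpt, Tcf21, Gsn and Lum did not pass in KO TAC vs WT TAC. In KO TAC vs WT TAC 6 of the 7 neutrophil markers were lower, as were 7 of the fibroblast markers and 4 of the macrophage markers, with 1 macrophage marker higher, while the neutrophil elastase gene Elane was below background on every array. The 11 cardiomyocyte markers summed to 296351 and 291502 in KO TAC, against 277793 and 268742 in WT TAC, a sum carried by the brightest probes. Of them Myh6, Tnni3 and Pln were higher and Mybpc3 lower. Of 10 endothelial markers 3 were higher and 3 lower, of 4 atrial markers 1 was higher and 3 lower, and of 3 erythroid markers 2 were lower. The single WT Sham array stood out in heat shock genes, with 1296 for Hspa1a and 4161 for Dnajb1, against at most 339 and 1976 on the other arrays. Left ventricle is a mixture of cells, so fewer cells of a type and less RNA per cell cannot be told apart in any of the values below.

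Of the 28 tested members, 8 were higher and 8 lower in KO TAC hearts than in WT TAC hearts, where 21.5% of all genes were higher and 19.5% lower. The members' median log2 fold change was -0.06, against 0.04 over all genes. The 8 higher were Slc2a4, Pfkm, Pfkfb2, Pgam2, Eno3, Gys1, Pygm and Ppp1r3b, and the 8 lower were Slc2a1, Slc2a3, Hk1, Pfkp, Pgam1, Gyg, Ugp2 and Pygl. In WT TAC vs WT Sham, 4 members were higher (Slc2a1, Slc2a3, Pfkp and Gyg) and 7 lower (Slc2a4, Pfkm, Pfkfb2, Pgam2, Eno3, Pygm and Ppp1r3b). Over all genes 15.3% were higher and 15.8% lower in that comparison, 31.1% in all. Both comparisons contain the WT TAC arrays, so they are not independent of each other. In KO TAC vs KO Sham 0 of the 28 passed the limma test, and 0 of all 9649 genes did. At an unadjusted p under 0.05 there was 1 member, Hk1, among 126 genes higher and 128 lower.

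**Figure D1:**
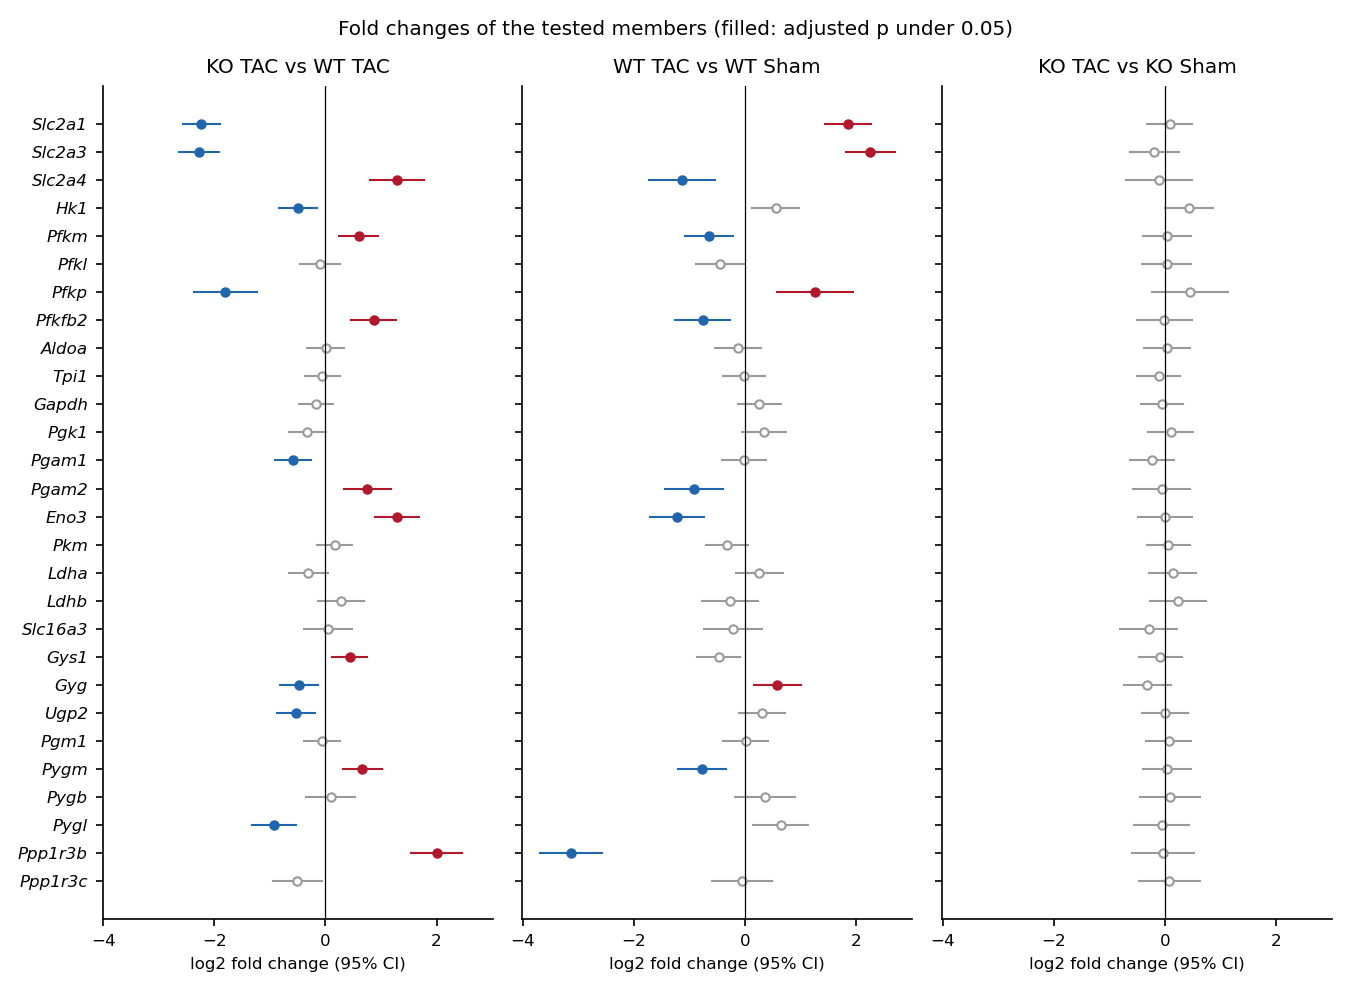
Log2 fold changes of the 28 tested members with 95% confidence intervals (horizontal axis) for KO TAC over WT TAC (left), WT TAC over WT Sham (middle) and KO TAC over KO Sham (right), ordered from transport to glycogen. Filled points passed the limma test: 16 in the first panel, 11 in the second and 0 in the third, where all points lie between -0.32 and 0.45.

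The glucose transporters showed the clearest contrast. Slc2a1 had intensities of 446 and 429 in KO TAC hearts and 418 in the KO Sham heart, against 1592 and 1765 in WT TAC hearts and 540.1 in the WT Sham heart. It was high on the WT TAC arrays alone, with no overlap, and was 4.71-fold lower in KO TAC hearts than in WT TAC hearts (log2 -2.24 ± 0.14, SE, limma adjusted p 0.000139) and 3.60-fold higher in WT TAC than in WT Sham (1.85 ± 0.17, adjusted p 0.000886). Slc2a3, which encodes the high-affinity transporter GLUT3 of neurons and leukocytes, stood at 161.2 and 161.4 in KO TAC and 169 in KO Sham, against 357 and 409 in WT TAC and 162 in WT Sham. On every array but those of WT TAC it was thus just above background. It was 4.83-fold lower in KO TAC hearts than in WT TAC hearts (log2 -2.27 ± 0.15, adjusted p 0.000160), and 4.75-fold higher in WT TAC than in WT Sham. Without background correction these differences were -1.17 and 1.16 on the log2 scale and still passed. Fold changes are given after background subtraction and so exceed the ratio of the deposited intensities for dim probes such as this one. Slc2a4 ran the other way, with 2158 and 2315 in KO TAC and 2386 in KO Sham, against 1167 and 827 in WT TAC and 2029.8 in WT Sham. It was 2.43-fold higher in KO TAC hearts than in WT TAC hearts (log2 1.28 ± 0.20, adjusted p 0.00370) and 2.20-fold lower in WT TAC than in WT Sham (adjusted p 0.0166). Slc2a12 had no probe above background on 2 arrays and was not tested. The neutrophil and macrophage marker sums above were high on the same 2 WT TAC arrays as Slc2a1 and Slc2a3. The macrophage sum was high there mainly through Lgals3 and Cd14. The part of either sum in these values was not tested.

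**Figure D2:**
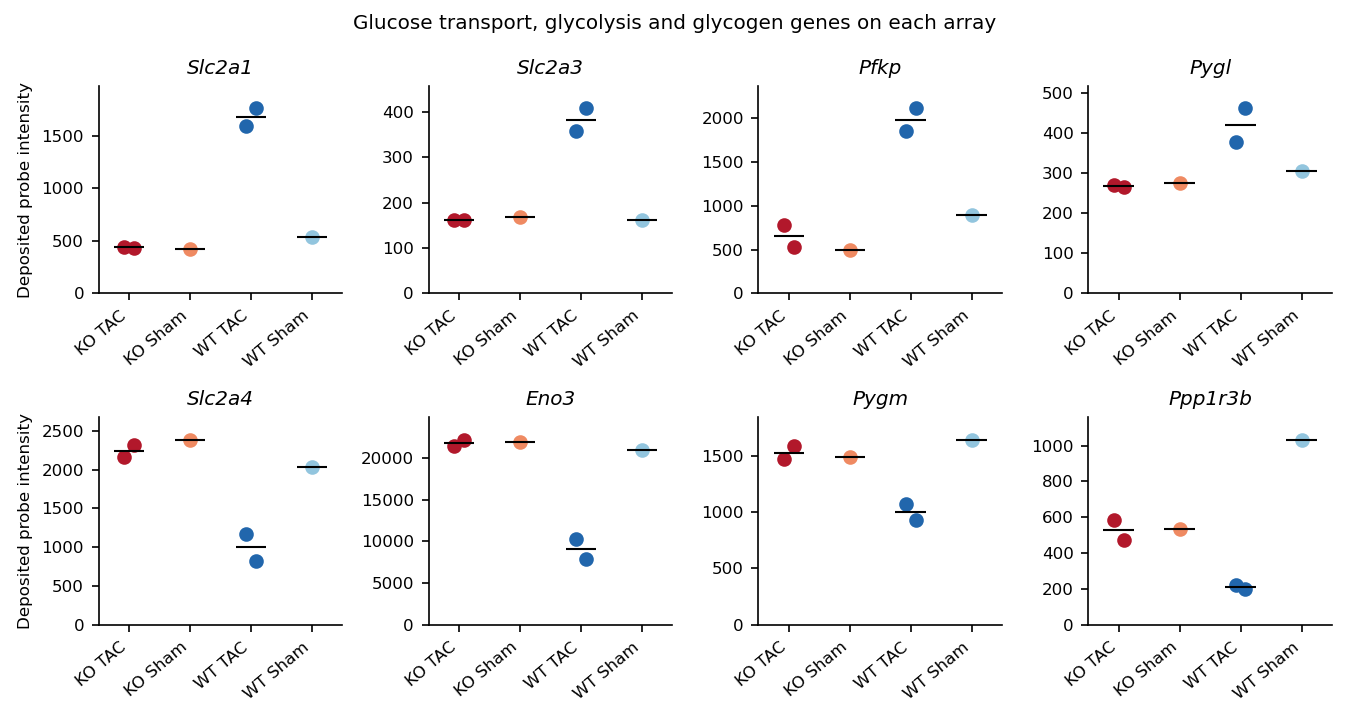
Deposited probe intensity (vertical axis, linear from 0) of 8 members on each of the 6 arrays, by group, with 1 point per array and a line at the group mean (n = 2 in each TAC group, n = 1 in each sham group). Slc2a1, Slc2a3, Pfkp and Pygl were highest on the WT TAC arrays, and Slc2a4, Eno3, Pygm and Ppp1r3b lowest there.

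At the entry of glycolysis, Hk1, the housekeeping hexokinase, had intensities of 482 and 515 in KO TAC and 396 in KO Sham, against 624 and 699 in WT TAC and 484 in WT Sham. It was 1.41-fold lower in KO TAC hearts than in WT TAC hearts (log2 -0.50 ± 0.15, adjusted p 0.0333), but its difference in WT TAC vs WT Sham missed the threshold (0.55, adjusted p 0.0564). Its dimmer probe gave the opposite calls, with -0.59 in KO TAC vs WT TAC (adjusted p 0.111) and 1.13 in WT TAC vs WT Sham (adjusted p 0.0376). Hk2, the insulin-regulated hexokinase of muscle, was not analysed here, so the balance of the 2 hexokinases has no value.

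The phosphofructokinase isoforms parted. Pfkm, the muscle isoform, had 20093 and 18199 in KO TAC and 18635 in KO Sham, against 13525 and 11803.5 in WT TAC and 19766 in WT Sham. It was 1.52-fold higher in KO TAC hearts than in WT TAC hearts (log2 0.60 ± 0.15, adjusted p 0.0184), and its other 2 probes also passed (0.70 and 1.37). Pfkp, the platelet isoform, which many dividing and immune cells use, had 786 and 529 in KO TAC and 498 in KO Sham, against 1857 and 2117 in WT TAC and 891 in WT Sham. It was 3.49-fold lower in KO TAC hearts than in WT TAC hearts (log2 -1.80 ± 0.23, adjusted p 0.00175; second probe -1.49) and 2.39-fold higher in WT TAC than in WT Sham (adjusted p 0.0193). On this probe all 3 KO arrays lay below the WT Sham array, a difference that in KO Sham vs WT Sham did not pass (-0.998, 95% interval -1.79 to -0.20, adjusted p 0.537). On the second probe KO TAC replicate 1 (252) lay above WT Sham (246). Pfkl, the liver isoform, did not pass in KO TAC vs WT TAC (-0.10, interval -0.46 to 0.26), with 4039 and 3399.6 in KO TAC, against 3814 and 4124 in WT TAC. Its KO Sham array had 3626 and its WT Sham array, the highest, 5374. The dimmer Pfkl probe had the other sign in KO TAC vs WT TAC (0.25) and did not pass either.

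Pfkfb2, the heart form of the enzyme that makes fructose 2,6-bisphosphate, an activator of phosphofructokinase, had 824 and 693 in KO TAC and 759 in KO Sham, against 495 and 429 in WT TAC and 711 in WT Sham. It was 1.82-fold higher in KO TAC hearts than in WT TAC hearts (log2 0.87 ± 0.17, adjusted p 0.00798), while its dimmer probe was below background on both WT TAC arrays and did not pass. The aldolase Aldoa and the triosephosphate isomerase Tpi1 lay between -0.06 and 0.00 on the log2 scale in KO TAC vs WT TAC and did not pass.

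In lower glycolysis the 2 muscle isoforms moved together. Eno3, the muscle enolase, was among the brightest probes of the set, with 21462 and 22197 in KO TAC and 21870 in KO Sham, against 10254 and 7953 in WT TAC and 20945 in WT Sham. The 4 arrays other than WT TAC spanned 20945 to 22197. Eno3 was 2.43-fold higher in KO TAC hearts than in WT TAC hearts (log2 1.28 ± 0.17, adjusted p 0.00171) and 2.33-fold lower in WT TAC than in WT Sham (adjusted p 0.00634). Pgam2, the muscle phosphoglycerate mutase, had 16354 and 13549 in KO TAC and 15489 in KO Sham, against 9955 and 7935 in WT TAC and 16749.6 in WT Sham. It was 1.68-fold higher in KO TAC hearts than in WT TAC hearts (log2 0.75 ± 0.18, adjusted p 0.0158). Its ubiquitous counterpart Pgam1 had 412 and 432 in KO TAC and 478 in KO Sham, against 562 and 599 in WT TAC and 588 in WT Sham. It was 1.497-fold lower in KO TAC hearts than in WT TAC hearts (log2 -0.58 ± 0.14, adjusted p 0.0159), with -0.02 in WT TAC vs WT Sham and -0.37 in KO Sham vs WT Sham (adjusted p 0.661), neither of which passed. Its dimmer probe, above background on 4 of the 6 arrays, did not pass in KO TAC vs WT TAC (-0.39, adjusted p 0.113). Gapdh, which the study used as the internal reference of its qRT-PCR, had 19819 and 20093 in KO TAC and 20694 in KO Sham, against 22533 and 22293 in WT TAC and 18828 in WT Sham. Its difference in KO TAC vs WT TAC was -0.17 (interval -0.48 to 0.14, adjusted p 0.340). Pgk1 (-0.32) and Pkm (0.17) did not pass either.

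No gene of lactate handling in the set passed a test. Ldha, the muscle-type lactate dehydrogenase subunit, had 11079 and 9717 in KO TAC and 9429 in KO Sham, against 12334 and 13275 in WT TAC and 10745 in WT Sham. The groups after TAC did not overlap, but the difference was small (log2 -0.31, interval -0.65 to 0.04, adjusted p 0.135). Ldhb, the heart-type subunit, was read by a single dim probe, with 165.3 and 178 in KO TAC and 161 in KO Sham, against 154 and 165.4 in WT TAC and 171 in WT Sham, all close to background although the subunit is abundant in heart. The lactate exporter Slc16a3 was above background on 2 of the 6 arrays, and the transporter Slc16a1 had no probe that could be tested.

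Ratios within an array set the isoforms against each other without regard to overall brightness, and only differences between groups are read, since probes differ in brightness. On the log2 scale, Slc2a1 over Slc2a4 was -2.58 and -2.76 in KO TAC and -2.86 in KO Sham, against 0.49 and 1.199 in WT TAC and -2.14 in WT Sham. The ratio was therefore lower in KO TAC hearts than in WT TAC hearts by a log2 difference of -3.52, the widest shift of the 5 ratios. Pfkp over Pfkm differed by -2.40 between KO TAC and WT TAC, Pfkp over Pfkl by -1.70, and Pfkl over Pfkm by -0.70. Ldha over Ldhb differed by -0.58, with the dim Ldhb probe in the denominator. In each of the 5 ratios both KO TAC arrays lay below both WT TAC arrays. The exact two-sided permutation p was 0.333 for each, the smallest that 2 arrays against 2 allow. Between WT TAC and WT Sham the same ratios differed by 2.98 for Slc2a1 over Slc2a4, 1.90 for Pfkp over Pfkm, 1.70 for Pfkp over Pfkl, 0.20 for Pfkl over Pfkm and 0.53 for Ldha over Ldhb.

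**Figure D3:**
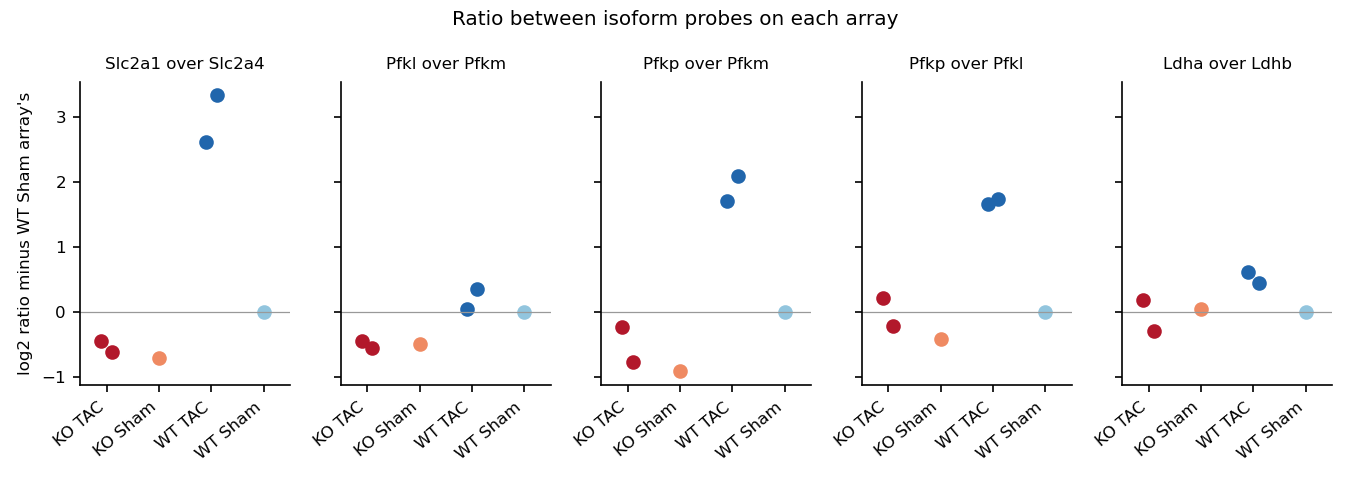
Log2 ratio of 2 isoform probes on each array minus the same ratio on the WT Sham array (vertical axis), for 5 isoform pairs, by group, with 1 point per array. The WT TAC points lie highest in every panel, and the distance is widest for Slc2a1 over Slc2a4.

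In glycogen synthesis, Gyg, the glycogenin primer, had 1183.5 and 1184.0 in KO TAC and 1448 in KO Sham, against 1492 and 1724 in WT TAC and 1107 in WT Sham. It was 1.39-fold lower in KO TAC hearts than in WT TAC hearts (log2 -0.47 ± 0.14, adjusted p 0.0385). Gys1, the muscle glycogen synthase, was dim, with 213.3 and 208 in KO TAC and 217 in KO Sham, against 182 and 184 in WT TAC and 213.5 in WT Sham, and was 1.36-fold higher in KO TAC hearts than in WT TAC hearts (log2 0.44, adjusted p 0.0374). Its other probe gave 0.76 (adjusted p 0.0283). The Gys1 call was lost without background correction (0.19, adjusted p 0.1005), with a background offset of 50 (0.32, adjusted p 0.0559) and with an intensity trend and robust prior (adjusted p 0.0649). Ugp2, which makes the UDP-glucose that glycogen synthase uses, had 2204 and 1965 in KO TAC and 2085 in KO Sham, against 3052 and 2881 in WT TAC and 2419.6 in WT Sham. It was 1.45-fold lower in KO TAC hearts than in WT TAC hearts (log2 -0.53 ± 0.14, adjusted p 0.0242). The synthesis genes thus moved in both directions, and the phosphoglucomutase Pgm1 did not pass (-0.06).

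The phosphorylases split by isoform. Pygm, the muscle phosphorylase, had 1469 and 1584 in KO TAC and 1489 in KO Sham, against 1074 and 932 in WT TAC and 1640.25 in WT Sham. It was 1.59-fold higher in KO TAC hearts than in WT TAC hearts (log2 0.67 ± 0.15, adjusted p 0.0132). Pygl, the liver phosphorylase, which leukocytes also use, had 271 and 267 in KO TAC and 275 in KO Sham, against 378 and 463 in WT TAC and 305 in WT Sham, and was 1.90-fold lower in KO TAC hearts than in WT TAC hearts (log2 -0.92 ± 0.17, adjusted p 0.00615; second probe -0.70). Pygb, the brain phosphorylase, did not pass (0.10).

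Ppp1r3b, a subunit that targets protein phosphatase 1 to glycogen and favours its synthesis, had the largest fold change of the set in WT TAC vs WT Sham. Its intensities were 586 and 475 in KO TAC and 535 in KO Sham, against 222 and 198 in WT TAC and 1032 in WT Sham. WT Sham was the highest array and both WT TAC arrays the lowest, with the 3 KO arrays between them. It was 4.0-fold higher in KO TAC hearts than in WT TAC hearts (log2 2.0 ± 0.19, adjusted p 0.000561) and 8.79-fold lower in WT TAC than in WT Sham (-3.14 ± 0.23, adjusted p 0.000462). Without background correction these differences were 1.27 and -2.22 on the log2 scale and still passed. Its second probe was below background on both WT TAC arrays and above it on the other 4. In KO Sham vs WT Sham, 1 array against 1, it differed by -1.11 (interval -1.75 to -0.46), which did not pass across all genes (adjusted p 0.446). Ppp1r3c, a related subunit, had 9367 and 6813 in KO TAC and 7558 in KO Sham, against 11716 and 10892 in WT TAC and 11782 in WT Sham. All KO arrays lay below all WT arrays, and the difference in KO TAC vs WT TAC missed the threshold (-0.51, adjusted p 0.0690).

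The TAC effects of the genotypes were also compared directly, as the effect in KO minus the effect in WT. Of the 28 members, 2 were higher and 2 lower (14.0% of all genes passed, 5.62% higher and 8.37% lower). The difference was 3.11 ± 0.33 on the log2 scale for Ppp1r3b (adjusted p 0.00395), 1.22 ± 0.29 for Eno3 (adjusted p 0.0381), -1.76 ± 0.24 for Slc2a1 (adjusted p 0.00797) and -2.44 ± 0.26 for Slc2a3 (adjusted p 0.00396). Slc2a4 missed the threshold (1.04 ± 0.35, adjusted p 0.0997), as did Pfkp (-0.80 ± 0.41, adjusted p 0.225). Within KO hearts the members stayed between -0.32 (Gyg) and 0.45 (Pfkp) on the log2 scale in KO TAC vs KO Sham, with 0 changed over 2-fold. The median half-width of the 95% intervals was 0.433. These intervals are for single genes before adjustment. Smaller changes were not detectable with these arrays, and after adjustment over all genes larger ones could be missed too. Between the sham hearts 0 members passed in KO Sham vs WT Sham, against 0.0622% of all genes (0.0415% higher and 0.0207% lower). Before adjustment, the limma p of 4 members was below 0.05, all of them lower (Pfkl, Pfkp, Ppp1r3b and Ppp1r3c). Among all 9649 genes, this looser cut took in 400 with more signal in KO Sham than in WT Sham and 369 with less. That comparison sets 1 array against 1 and borrows its spread from the TAC pairs.

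Some of these calls were lost when 1 TAC array was left out. Such a fit leaves 1 array in that group and has less power, so a lost call need not trace to the array removed. The Gyg difference in KO TAC vs WT TAC, for example, stayed at -0.473 without KO TAC replicate 1 and at -0.474 without KO TAC replicate 2. Of the 16 members called in KO TAC vs WT TAC, 7 were called whichever TAC array was left out (Slc2a1, Slc2a3, Slc2a4, Pfkp, Eno3, Pygl and Ppp1r3b). Without WT TAC replicate 2, only these 7 passed. Hk1, Gys1 and Gyg lost the call whichever TAC array was left out, with adjusted p up to 0.171, 0.138 and 0.194. Pgam1 and Ugp2 lost it in 3 of 4 cases, each without WT TAC replicate 1 and without WT TAC replicate 2, and in addition without KO TAC replicate 1 for Pgam1 (up to 0.0948) and KO TAC replicate 2 for Ugp2 (up to 0.112). Pfkm and Pgam2 lost it without WT TAC replicate 2 (up to 0.111 and 0.101) and without KO TAC replicate 1, and Pfkfb2 (0.0614) and Pygm (0.0872) without WT TAC replicate 2. In WT TAC vs WT Sham, Slc2a1, Slc2a3, Eno3 and Ppp1r3b were called in each case. There, without WT TAC replicate 2, the other 7 lost the call, and without WT TAC replicate 1, Gyg, Pfkfb2, Pfkm and Pfkp did. The difference of TAC effects for Eno3 was lost without WT TAC replicate 2 (adjusted p 0.0976).

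Other genes of glucose metabolism, from 5 lists, were read in the same way. Of 23 further glycogen genes 19 were tested, and 6 were higher and 2 lower in KO TAC hearts than in WT TAC hearts (42.1%, against 41.0% of all genes), with a median log2 fold change of 0.22. Phkg1, the catalytic subunit of muscle phosphorylase kinase, had 324 and 534 in KO TAC and 414 in KO Sham, against 143 and 139.8 in WT TAC, both below background, and 226 in WT Sham. It was at least 6.66-fold higher in KO TAC hearts than in WT TAC hearts (adjusted p 0.000642), the dim group being set at the background level. Such bounds hold on the background-subtracted scale, and for each gene given one the ratio of the deposited intensities was smaller. Another glycogen-targeting subunit, Ppp1r3d, was 2.23-fold higher and the laforin partner Nhlrc1 (malin) 2.03-fold higher, followed by Pgm5 with 1.53-fold. Stbd1, which tethers glycogen to membranes, had 506 and 324 in KO TAC, against 995 and 1137 in WT TAC, and was 3.23-fold lower, and Ppp1r3g was at least 1.69-fold lower. The other 2 higher genes, Epm2a (laforin) and Phkb, were named after their values were seen and changed less.

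Among 18 further genes of glycolysis and gluconeogenesis, 8 were tested and 2 passed (25%, against 41.0% of all genes). Fbp2, the muscle fructose bisphosphatase that runs the phosphofructokinase step backwards, had 1366 and 1309 in KO TAC and 1268 in KO Sham, against 306 and 234 in WT TAC and 955 in WT Sham. It was 7.61-fold higher in KO TAC hearts than in WT TAC hearts (log2 2.93 ± 0.22, adjusted p 0.000244) and 5.25-fold lower in WT TAC than in WT Sham (adjusted p 0.00170). Gpd2, the mitochondrial glycerol phosphate dehydrogenase, was 1.39-fold lower in KO TAC.

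Of 14 genes of hexose transport and trapping 7 were tested and 2 passed (28.6%, against 41.0% of all genes). Tbc1d4, the insulin-regulated brake on GLUT4 traffic, had 298 and 271 in KO TAC and 306 in KO Sham, against 169.8 and 161.4 in WT TAC and 284 in WT Sham. It was 2.92-fold higher in KO TAC hearts than in WT TAC hearts (log2 1.54 ± 0.15, adjusted p 0.000651), and Slc2a13 was at least 1.55-fold lower. Of 6 genes of lactate handling 3 were tested and 2 passed (66.7%). Ldhd, a mitochondrial D-lactate dehydrogenase, was 2.53-fold higher in KO TAC (adjusted p 0.00436). Bsg, the chaperone of lactate transporters, was at least 1.18-fold higher there on the background-subtracted scale. The Bsg probe lay close to background, with 156 and 160 in KO TAC, against 142 and 136 in WT TAC, below background.

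Of 14 genes of the pentose phosphate and hexosamine branches 9 were tested, and 1 was higher and 3 lower in KO TAC hearts than in WT TAC hearts (44.4%, against 41.0% of all genes). Gfpt2, which opens the hexosamine pathway by drawing off fructose 6-phosphate, had 518 and 375.5 in KO TAC and 546 in KO Sham, against 1471 and 1546 in WT TAC and 430.1 in WT Sham, and was 4.18-fold lower in KO TAC (log2 -2.06 ± 0.21, adjusted p 0.000755). Uap1, which completes UDP-N-acetylglucosamine, was 2.53-fold lower (adjusted p 0.00182), and H6pd, the hexose phosphate dehydrogenase of the endoplasmic reticulum, 1.46-fold lower. Rpia, the ribose phosphate isomerase, was 2.0-fold higher (adjusted p 0.00197).

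**Figure D4:**
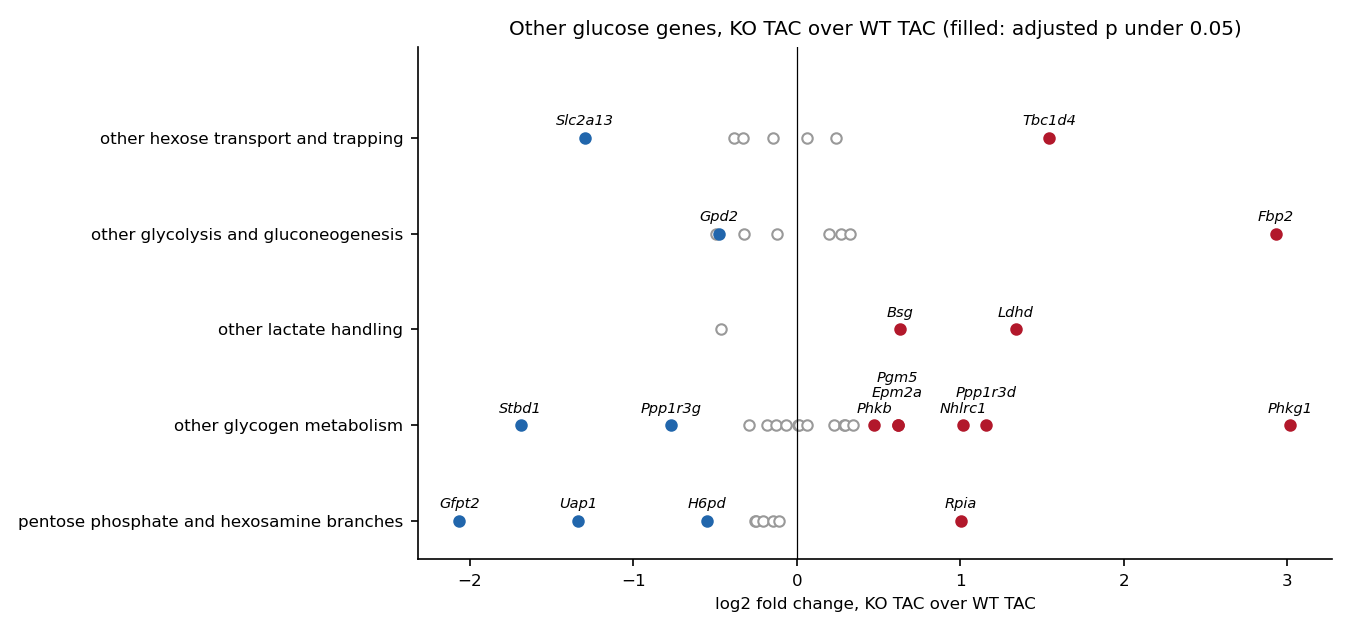
Log2 fold change in KO TAC over WT TAC (horizontal axis) of the tested genes of 5 further glucose lists, 1 point per gene. Filled, named points passed the limma test (11 higher and 7 lower of 46 tested, where 41.0% of all genes passed). Fbp2 and Phkg1 lie farthest to the right and Gfpt2 farthest to the left.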

How the data were processed

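Illumina mouse bead arrays were read out by the authors with GenomeStudio 2011.1. Each deposited value is a probe intensity, not on a log scale. After sorting, no value differed by more than 0.838% across the 6 arrays, so the table had been quantile normalized before deposit. How this was done, and any background subtraction, is not given in the sources used here. A second table was not used, since its 6 signal columns tie to no sample.

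Background was corrected on each array with limma 3.58.1 in R 4.3.3 (nec, robust normal-exponential fit, offset 16), with 1542 probes of olfactory, vomeronasal and taste receptors as negative controls, followed by log2 and quantile normalization. A probe entered when it exceeded percentile 99 of the receptor probes on 2 or more arrays (16688 of 45281). Each gene was read by its brightest kept probe. Of the probes, 34885 named 1 gene, 18 several and 10378 none, and symbols were updated by Entrez identifier in the GRCm38.p6 reference (34807 matched).

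One coefficient per group was fitted to all 6 arrays (limma, eBayes), with 2 residual degrees of freedom from the TAC pairs and 4.62 prior ones. Each sham group is 1 array, assumed to vary like the TAC arrays. P-values were adjusted over 9649 genes (Benjamini-Hochberg) and called at 0.05. The number of arrays limits the precision. Where a group was below background on every array, that level was set to background and the fold given as "at least", on the background-subtracted scale. The fit was tested on simulated data. Per-array values are given for members that passed a test or belong to an isoform pair, and for a few others chosen after their values were seen (Gapdh, Ppp1r3c). Genes of the other lists are named where they passed in KO TAC vs WT TAC, up to the 4 with the largest change in each direction. Members and lists were chosen with earlier results of these data known. Alternatives were the background correction, its offset, the normalization, the filter, the probe summary, the variance prior, leaving out each TAC array, the replicate block and the methods' t-test.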

Additional observations from a re-analysis of the deposited data

Results flagged for a closer look

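The TAC effect differed between the genotypes by a test of the difference itself (limma, adjusted p under 0.05) for 4 of the 28 tested members, close to the share of all genes that passed (14.0%). The effect in KO minus the effect in WT was 3.11 on the log2 scale for Ppp1r3b (adjusted p 0.00395), 1.22 for Eno3 (adjusted p 0.0381), -1.76 for Slc2a1 (adjusted p 0.00797) and -2.44 for Slc2a3 (adjusted p 0.00396). In all 4 genes the KO TAC and KO Sham arrays lay close to each other and the WT TAC arrays moved away from WT Sham. For Ppp1r3b the KO Sham array (535) lay below WT Sham (1032), as it did for Slc2a1 (418 against 540.1), differences between single sham arrays that did not pass the test (adjusted p 0.446 and 0.623).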

How the results depend on the processing

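Of the members, 16 passed in KO TAC vs WT TAC, 11 in WT TAC vs WT Sham and 4 in the difference of TAC effects. Of all genes 41.0%, 31.1% and 14.0% passed. For the alternatives below, a count over all genes is given for the t-test only. A changed member count is therefore not read as particular to the members, and leaving out a TAC array lowers the power for every gene. Leaving out each TAC array in turn gave 7 to 12, 4 to 11 and 3 to 5 members. WT TAC replicate 2 gave the lowest counts, 7, 4 and 3. Without a filter on background, 5 members passed in WT TAC vs WT Sham, and with an intensity trend and a robust prior 9 passed in the difference of TAC effects. The methods' t-test on the TAC groups gave 18 members at an unadjusted p under 0.05 (8 higher, 10 lower) and 0 after Benjamini-Hochberg adjustment. Over all 9649 genes it gave 3373 unadjusted and 1 after adjustment, so few genes of any kind could pass it. The other alternatives kept each count within 1.5 times its value, no call of a member reversed, and the 5 isoform ratios kept their direction under the alternatives run for them. Without background correction, Ppp1r3b and Slc2a3 kept their calls with folds smaller by over 1.5 times, 2.20 and -1.22 on the log2 scale in the difference of TAC effects. Gyg lost its call in WT TAC vs WT Sham with the mean of its probes (adjusted p 0.0939). The TAC replicates share only a number: deviations of same-numbered arrays correlated at 0.05, and with the replicate number as a block 17 members passed (8 higher, 9 lower), 16 of them shared with the fit without it. The cause of these differences was not tested. Signal over background limits Ldhb, Slc16a3, Slc2a3 and Gys1, whose probes lay close to the background level on most arrays, and 7 members with probes between 107.6 and 149 were not tested.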

Other observations

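Some regulators of glucose use outside the set differed between the WT TAC arrays and the single WT Sham array. They are named here after their values were seen. Txnip, a brake on glucose uptake, had 8438 and 8447 in WT TAC, against 4971 in WT Sham, and was 1.71-fold higher in WT TAC (limma adjusted p 0.0166). It stood at 8105 and 7219 in KO TAC and at 8055 in KO Sham, so that WT Sham was the only array with a low value, and it did not pass in KO TAC vs WT TAC. Emb, a chaperone of lactate transporters, had 198 and 206 in WT TAC, against 145.6 in WT Sham, below background, and was at least 1.93-fold higher on the background-subtracted scale, where the ratio of the deposited intensities was smaller (adjusted p 0.00481). Ppp1r3f was 1.64-fold lower in WT TAC than in WT Sham (adjusted p 0.0265).

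Among 10 immediate early and heat shock genes, a list kept for sample quality, 7 were lower and 1 higher in KO TAC vs WT TAC (80%, against 41.0% of all genes). Fos had 174 and 158 in KO TAC and 179 in KO Sham, against 1630 and 1750 in WT TAC and 159 in WT Sham, and Egr1 and Junb were likewise high on the WT TAC arrays. Hspa1a was instead highest on the WT Sham array, with 229 and 156 in KO TAC and 146 in KO Sham, against 259 and 339 in WT TAC and 1296 in WT Sham, and so was Dnajb1. Their part in the values of the glucose genes was not tested.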
